A study of Mus musculus with 43 samples.

Results

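A set of 32 mouse germline and meiosis genes was examined in embryonic fibroblasts for which of them lay under regions enriched for repressive histone marks or for the H3K9 methyltransferase Setdb1. The genes were taken from a fixed list and not chosen by any measured value. They are 32 of 21938 protein-coding genes on chromosomes in the GENCODE annotation, they lie on 15 autosomes, and all 32 were found in it. By role they fall into 7 germ cell specification and RNA-binding genes, 5 genes of the synaptonemal complex and chromosome axis, 3 meiotic cohesin genes, 3 recombination genes, 10 genes of the piRNA pathway and 4 other testis genes.

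The study ran chromatin immunoprecipitation followed by sequencing (ChIP-seq) on cultured mouse embryonic fibroblasts (MEFs) to ask where H3K9 methylation lies on the inactive X, and the autosomal genes here were read from the same data. The MEFs came from E13.5 embryos of 129/C57 dams mated with CAST sires, and all were transduced with a retrovirus and selected with puromycin. Female cells were Setdb1+/+ Xist∆A/+ with a Nonsilencing hairpin, Setdb1-depleted cells were female Setdb1+/gt Xist∆A/+ with a hairpin against Setdb1, and male cells were Setdb1+/+ X/Y with the Nonsilencing hairpin. Each of H3K27me3, H3K9me3, H3K9me2 and Setdb1 had 3 female, 2 Setdb1-depleted and 3 male libraries, out of 43 samples in 18 groups. The gt allele is a gene trap on 1 copy of Setdb1, so the depleted cells keep an untrapped copy. The Xist∆A allele forces the CAST X to be the inactive one. In the labels, NSCs are named in the extraction protocol and MEFs everywhere else. For the Setdb1-depleted Setdb1 list the file header gives the Nonsilencing hairpin, which goes against the labels, so it is not certain which hairpin those cells carried. The female and Setdb1-depleted cells differ in both the trap and, per the labels, the hairpin.

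The authors pooled the libraries of each group before they called peaks, so each target and kind of cell has 1 list of enriched regions (12 lists), replicate errors could not be had, and kinds of cells could not be tested against each other. A gene was counted under a list when at least 1 bp of a peak lay over the gene body or within 5 kb on either side, which is called its window. The counts stand beside the share of 18284 other autosomal protein-coding genes with a body between 1.56 and 151 kb, the shortest and longest of the 32. The autosomal lists held 7293 (female), 6259 (Setdb1-depleted) and 6745 (male) H3K27me3 peaks, 5820, 3467 and 5217 H3K9me3 peaks, 1639, 1199 and 1674 H3K9me2 peaks, and 1104, 337 and 3113 Setdb1 peaks. Relative to the female H3 control pool, that of Setdb1-depleted cells was 61.6% as deep and that of male cells 71.8%, and the part of this depth in the counts below was not tested. Counts with equal numbers of peaks per list are given with the alternatives in the closing section. As a check of the labelled cell type, none of 15 fibroblast genes had an H3K27me3 peak in its window in any of the 3 lists. Among them are Col1a1, Pdgfra and Twist1. Of the other targets, Vim had an H3K9me3 peak in the male list and an H3K9me2 peak in the female list. Setdb1 peaks lay in the windows of Twist2 (female list) and Col1a2 (male list). None of these peaks covered a start.

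Germline genes are needed to make eggs and sperm and are kept silent in somatic cells. DNA methylation at CpG-rich promoters, the Polycomb complex PRC1.6, which binds DNA through E2F6 and through the E-box binding pair Mga and Max, and H3K9 methylation by Setdb1 or by the G9a and GLP enzymes are each known to take part in that silencing. H3K27me3 is the mark of Polycomb repressive complex 2 and forms broad domains over silent developmental genes, while H3K9me3 is best known from heterochromatin and from repeats.

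Promoters with an E-box are shown first, from genes whose start changed between lists and from genes whose start did not. Nanos2, Tex101 and Sycp2, whose starts also changed, had no E-box in their windows and are not shown. RefSeq promoter windows of the GRCm38.p6 assembly (the same positions as mm10), running from 250 bases before to 50 bases after the start, were held for 27 of the 32 genes. The windows were searched on both strands for the E-box CACGTG, which reads the same on both strands, and for the E2F motif TTCCCGC, read as GCGGGAA on the other strand. The sequences below are the 250 bases before the RefSeq start, read 5′ to 3′ in the direction of transcription, with motif matches in capitals. Sycp1 (chr3:102936101-102936350, minus strand), Stk31 (chr6:49395354-49395603, plus strand) and Tdrd1 (chr19:56825959-56826208, plus strand) had a start under H3K27me3 in the female list and not in the Setdb1-depleted list, Sohlh1 (chr2:25847249-25847498, minus strand) had it in all 3 lists, Tdrd9 (chr12:111971309-111971558, plus strand) only in the male list, and Hormad1 (chr3:95559427-95559676, plus strand), with both motifs, in none.
Sycp1: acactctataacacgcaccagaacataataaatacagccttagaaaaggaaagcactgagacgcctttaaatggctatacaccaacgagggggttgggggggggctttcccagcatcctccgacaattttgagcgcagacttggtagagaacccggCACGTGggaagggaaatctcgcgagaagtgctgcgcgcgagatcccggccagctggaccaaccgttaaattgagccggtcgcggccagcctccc
Stk31: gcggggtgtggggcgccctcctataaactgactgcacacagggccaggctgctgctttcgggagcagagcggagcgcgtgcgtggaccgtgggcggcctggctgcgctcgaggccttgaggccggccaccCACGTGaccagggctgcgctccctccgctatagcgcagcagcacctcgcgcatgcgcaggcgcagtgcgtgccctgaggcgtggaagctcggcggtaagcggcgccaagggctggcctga
Tdrd1: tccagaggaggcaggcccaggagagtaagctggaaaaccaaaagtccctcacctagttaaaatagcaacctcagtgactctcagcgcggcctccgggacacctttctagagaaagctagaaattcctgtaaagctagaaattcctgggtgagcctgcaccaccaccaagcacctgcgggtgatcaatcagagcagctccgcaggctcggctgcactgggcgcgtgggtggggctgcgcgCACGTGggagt
Sohlh1: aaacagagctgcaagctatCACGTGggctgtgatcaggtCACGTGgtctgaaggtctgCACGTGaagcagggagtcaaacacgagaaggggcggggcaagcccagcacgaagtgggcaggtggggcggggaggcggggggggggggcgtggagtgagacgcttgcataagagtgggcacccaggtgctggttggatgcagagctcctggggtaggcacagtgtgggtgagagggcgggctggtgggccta
Tdrd9: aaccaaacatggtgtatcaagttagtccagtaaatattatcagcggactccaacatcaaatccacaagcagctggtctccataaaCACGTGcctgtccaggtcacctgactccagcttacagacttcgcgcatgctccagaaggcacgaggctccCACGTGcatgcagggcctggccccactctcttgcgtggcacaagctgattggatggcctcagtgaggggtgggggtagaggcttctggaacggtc
Hormad1: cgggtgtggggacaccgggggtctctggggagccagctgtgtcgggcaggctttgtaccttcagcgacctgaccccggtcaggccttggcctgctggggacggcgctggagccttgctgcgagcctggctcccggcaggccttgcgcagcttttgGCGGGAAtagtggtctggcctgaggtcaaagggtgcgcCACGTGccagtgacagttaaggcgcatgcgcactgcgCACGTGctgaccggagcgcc

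A run of 30 bases around the E-box is shown for 4 further genes that had a start under H3K27me3 in the female list, where the 2 annotations place the start differently. They are Brdt (chr5:107331104-107331133, plus strand), Ddx4 (chr13:112652322-112652351, minus strand), Mov10l1 (chr15:88982744-88982773, plus strand) and Stag3 (chr5:138280327-138280356, plus strand).
Brdt: cgcaggcacagtCACGTGgcagaccctggc
Ddx4: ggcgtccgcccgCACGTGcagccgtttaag
Mov10l1: ccttCACGTGctaaccgccaacctctcgtg
Stag3: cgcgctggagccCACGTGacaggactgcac

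The E-box was present in the promoter windows of 14 of the 27 genes (51.9%), against 8.02% of 15660 other autosomal protein-coding genes with a window. The E2F motif was in 8 (29.6%), against 6.26%, and both motifs stood together in 5 (18.5%), namely Ddx4, Hormad1, Slc25a31, Stag3 and Sycp3, against 0.587%. The windows of the germline genes were richer in CpG: the median ratio of observed to expected CpG was 0.713, against 0.614 in the other genes, and ranged from 0 in Nanos2 to 1.11 in Tdrd5. Among windows with a ratio of at least 0.6, the E-box was in 11 of 18 germline genes (61.1%) and in 11.4% of 8020 other genes. A match is a description of the letters in the window and not evidence of binding there.

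H3K27me3 was the mark found over most of these genes. The female list had a peak in the window of 21 of the 32 genes (65.6%), where 31.2% of genes of similar length had one. In the Setdb1-depleted list 17 genes (53.1%) had a peak, beside 28.1%, and in the male list 19 genes (59.4%), beside 28.9%. The marked part of the windows was also larger, with a mean of 39.0% of the window under peaks in the female, 25.7% in the Setdb1-depleted and 35.5% in the male list, where the other genes had means of 15.8%, 13.8% and 14.7%. In 10 of the 32 genes a peak was present in all 3 lists, where 19.8% of the other genes had one in all 3.

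**Figure D1:**
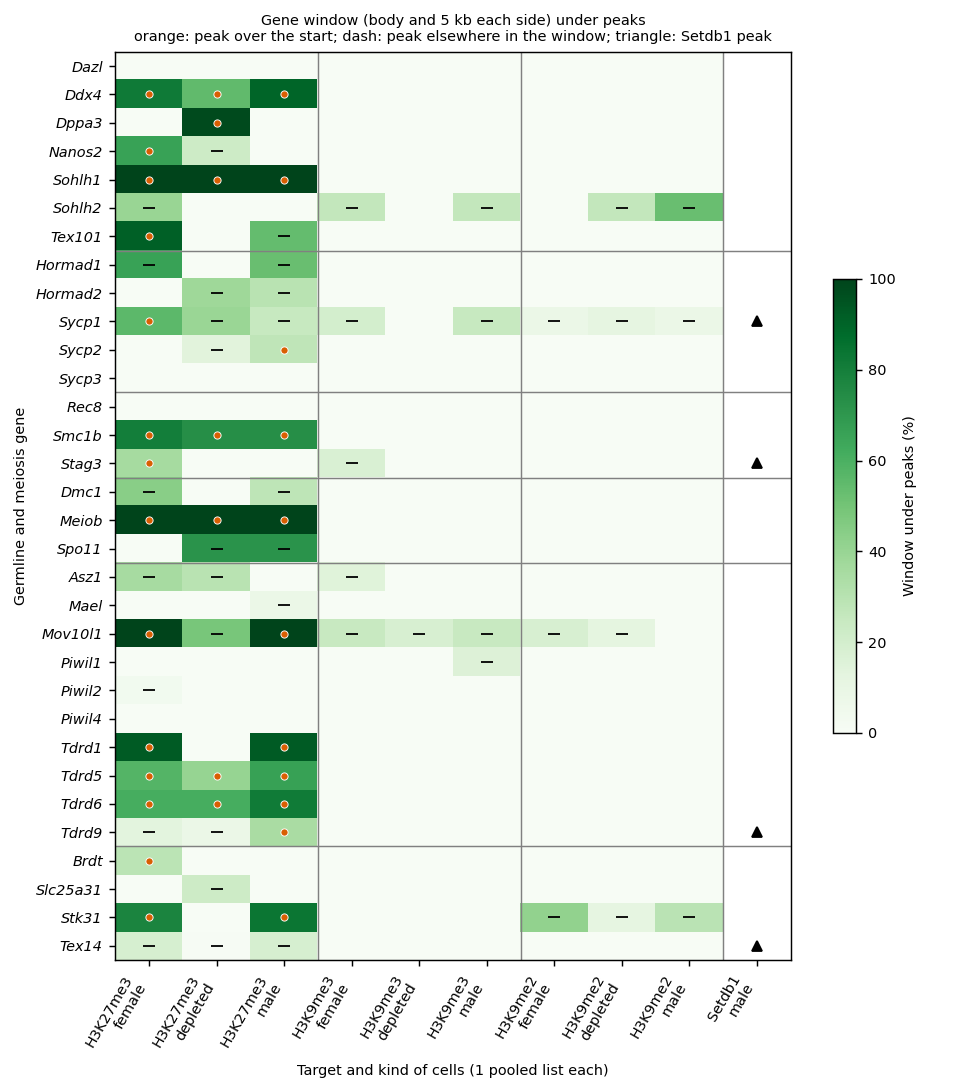
Percent of each gene window (body and 5 kb on each side) under peaks, for 32 germline genes in rows grouped by role and 9 pooled histone lists in columns, with a last column for the male Setdb1 list. Orange points mark a peak over the annotated gene start, dashes a peak elsewhere in the window and triangles a Setdb1 peak; the H3K27me3 columns hold all starts under a peak, and no H3K9me3 or H3K9me2 peak lay over a start.

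The difference between kinds of cells was largest at the gene start, the first base of the gene in GENCODE. H3K27me3 lay over the start of 14 genes in the female list (43.8%), 7 in the Setdb1-depleted list (21.9%) and 11 in the male list (34.4%), where the other genes had 19.7%, 17.6% and 17.9%. By this rule the share in the female and male lists stood well above that of the other genes. In the Setdb1-depleted list it was near theirs. Borders of the peaks are known only to 5 kb, and with 5 kb on each side of the start the counts were 15, 10 and 15. With at least 50% of the window under peaks the shares were 40.6%, 21.9% and 37.5%, beside 14.3%, 12.4% and 13.4%. Of the 14 starts under a female peak, 8 had no peak over the start in the Setdb1-depleted list (57.1%), and this was so for 25.2% of the 3594 starts of other genes under a female peak. These were the starts of Sycp1, Brdt, Stag3, Stk31, Nanos2, Tex101, Mov10l1 and Tdrd1. The start of 1 gene, Dppa3, was under a peak in the Setdb1-depleted list and not in the female list. Neither list had a peak over 17 starts, and among the other genes these counts were 523 and 14167. Against the same female list, 5 of the 14 starts had no male peak (Sycp1, Brdt, Stag3, Nanos2 and Tex101), beside 25.5% of the other genes. For Tex101 this held for the GENCODE start only, since its RefSeq start, further into the gene, was under a male peak. The starts of Sycp2 and Tdrd9 were under a male peak without a female one. The comparisons with Setdb1-depleted and with male cells share the female list and are not independent of each other.

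Within the gene windows the turnover was similar in kind. Of 21 genes with a female H3K27me3 peak, 9 had none in the Setdb1-depleted list (42.9%, beside 24.8% of other genes) and 6 had none in the male list (28.6%, beside 24.4%). Conversely 5 genes (Spo11, Sycp2, Slc25a31, Dppa3 and Hormad2) had a peak in the Setdb1-depleted and not in the female list. A peak in neither was found for 6 genes, and among the other genes these counts were 855 and 11733. For the male list 4 genes had a peak there and not in the female list and 7 in neither, beside 971 and 11617. So gains too were a larger part of the genes without a female peak than among the other genes. The shorter peaks over starts went more often in all genes. Of 7 germline starts under a female peak of 10 to 25 kb, 5 had no peak in the Setdb1-depleted list, beside 37.5% of 1045 other starts, and of 7 under a female peak of at least 65 kb, 3 had none, beside 145 of 1072 others. H3 reads within the female H3K27me3 peaks over these genes were scaled to the depth of each pool. Ratios of Setdb1-depleted to female cells ran from 0.921 to 1.09. Their median of 1.00 was the same as over all 7293 female peaks. The scaling takes out the difference in depth between pools, so these ratios can show only local differences in the H3 control. At the Setdb1-depleted peaks of the 5 genes without a female peak, the ratio was 0.821 (Dppa3), 0.904 (Spo11), 0.909 (Sycp2), 1.05 (Hormad2) and 1.11 (Slc25a31). Over the female H3K9me3 peaks of the germline genes it ran from 0.787 to 1.22. The part of the H3 control in the peaks that differed was not tested.

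**Figure D2:**
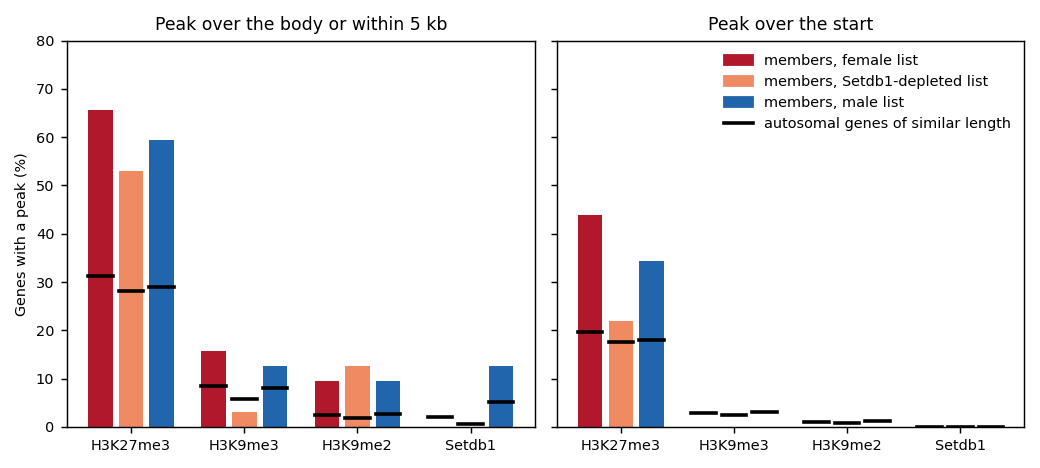
Percent of the 32 germline genes with a peak in each pooled list (bars) and of 18284 autosomal genes of similar length (black lines), for any peak over the body or within 5 kb (left) and for a peak over the start (right). H3K27me3 bars stand above the lines in all lists, and the Setdb1-depleted bar over the start, at 21.9%, comes near its line at 17.6%.

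Among the germ cell specification and RNA-binding genes, 5 of 7 had an H3K27me3 peak in the female list, 4 in the Setdb1-depleted and 3 in the male list. Ddx4, the germ cell RNA helicase also called Vasa, had 81.8% of its window under peaks in the female, 54.6% in the Setdb1-depleted and 89.6% in the male list, with the start under a peak in all 3. Sohlh1, a transcription factor of early spermatogonia and oocytes, had its whole window (100%) under peaks in all 3 lists, in a domain of 95 kb in the female and 85 kb in the Setdb1-depleted list that also held the starts of Glt6d1, Lcn9 and Kcnt1. Both genes thus kept a peak over the start in each list. Nanos2, an RNA-binding protein of male germ cells, lay at the edge of a wider domain over the neighbouring Nova2. The female peak reached 2.60 kb past its start, the Setdb1-depleted peak ended 2.40 kb before it, and the male list had none. Tex101, a surface protein of sperm precursors, had 91.0%, 0% and 53.6% of its window under peaks. Dppa3, also called Stella and known from primordial germ cells and the egg, was the reverse case, at 0%, 98.0% and 0%, through a single peak of 15 kb. Dazl, an RNA-binding protein needed for germ cell fate, had no peak of any target in its window.

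The synaptonemal complex holds paired chromosomes together in meiosis, and its genes split between lists. Sycp1, which encodes the central filament protein, had 55.7%, 39.2% and 24.7% of its window under H3K27me3 in female, Setdb1-depleted and male lists. In the female list 1 of its 3 peaks, 25 kb wide, covered the promoter and ended 1.10 kb into the gene, and neither of the other lists had a peak there. Sycp2, a protein of the lateral element, had 0%, 13.8% and 27.6%, and its start was under the male peak only. Hormad1, an axis protein that marks unsynapsed chromosomes, had 65.8%, 0% and 52.6%, while its relative Hormad2 had 0% in the female list, a peak of 40 kb in the Setdb1-depleted list and 29.5% in the male list. So these 2 genes each lacked a peak in 1 list, and not the same one. Sycp3, which encodes the main axial protein, had no peak in any list, although its promoter held 2 E-boxes and an E2F motif.

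Of the meiotic cohesin genes, Smc1b, which encodes the SMC subunit of meiotic cohesin, had 80.2%, 73.7% and 73.7% of its window under H3K27me3, in a domain of 80 to 85 kb shared with Ribc2 that covered its start in all 3 lists. Stag3, another cohesin subunit, had a peak in the female list only, 15 kb wide, from 0.239 kb before its start to 14.8 kb into the gene, covering 35.6% of the window. Rec8, the meiotic kleisin, had none. Among the recombination genes, Meiob, a single-strand DNA-binding protein, lay wholly (100%) within a peak of 105 kb that had the same borders in all 3 lists and also covered Hs3st6, Hagh and Fahd1. Spo11, which makes the meiotic DNA breaks, had 0%, 71.8% and 71.8%, and Dmc1, the meiotic recombinase, had a female peak of 35 kb, no Setdb1-depleted peak and a male peak of 15 kb. No start of these 2 genes was under a peak.

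The piRNA pathway silences transposons in germ cells, and 7 of its 10 genes had an H3K27me3 peak in the female list, 5 in the Setdb1-depleted and 6 in the male list. Among the Tudor domain genes, Tdrd5 (57.7%, 40.5% and 66.2% of the window) and Tdrd6 (61.3%, 61.3% and 81.3%) had the start under a peak in all 3 lists. Tdrd1 had 93.0%, 0% and 93.0%, from a peak of 65 kb with the same borders in the female and male lists. Tdrd1 was thus the widest start peak of the germline genes that left no peak at all in the window in Setdb1-depleted cells. Mov10l1, an RNA helicase of piRNA biogenesis, had 100%, 48.8% and 100%. Its peak of 135 kb in the female and male lists was in the Setdb1-depleted list one of 55 kb, with the same far border and with its near border 37.1 kb into the gene. Tdrd9, another helicase, had 12.9%, 8.25% and 34.8%, the last with a further male peak over its start. Asz1, an ankyrin repeat protein of piRNA biogenesis, had 35.3%, 29.4% and 0%. Mael, or Maelstrom, had 0%, 0% and 7.88%, and the Argonaute gene Piwil2 had 3.77%, 0% and 0%, in each case from a peak in the flank only. Piwil1 and Piwil4, which also encode Argonaute proteins, had no H3K27me3 peak in any list.

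Of the other testis genes, Stk31, a kinase with a Tudor domain, had 77.5%, 0% and 83.4% of its window under peaks, in a peak over the start and a second of 45 kb further into the gene in both the female and male lists. Brdt, a bromodomain protein that remodels sperm chromatin, had 28.6%, 0% and 0%. Tex14, a protein of the bridges between germ cells, had 18.7%, 0.512% and 18.7%. The Setdb1-depleted peak of Tex14 was a different one, which lay over Sept4 beyond the end of the gene. Slc25a31, the testis form of the ADP/ATP carrier, had 0%, 22.4% and 0%.

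**Figure D3:**
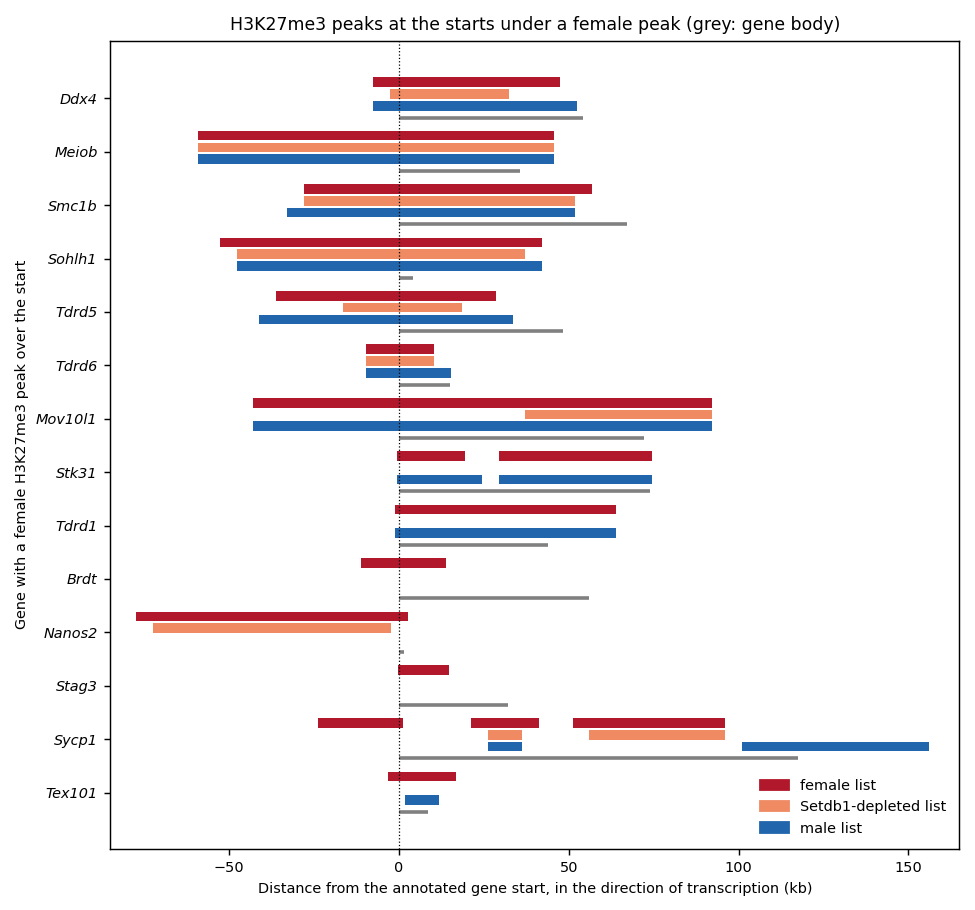
H3K27me3 peaks around the 14 gene starts that lay under a female peak, drawn to scale against the distance from the start in kb, with female, Setdb1-depleted and male lists as coloured bars and the gene body in grey. The top 6 genes have a peak over the start in all 3 lists, and the 8 below have none there in the Setdb1-depleted list. Of these, Mov10l1, Nanos2 and Sycp1 keep a peak or peaks to 1 side of the start.

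Some of the peaks held more than 1 gene. Of the 14 female peaks over germline starts, 8 also covered the start of another protein-coding gene, and so did 4 of 7 in the Setdb1-depleted and 7 of 11 in the male list. The same was not counted for the starts of the other genes. The median width of female peaks over starts was 45 kb for the germline genes and 40 kb for the other genes. The 6 starts that were under a peak in both the female and Setdb1-depleted lists had female peaks of 20 to 105 kb (median 75 kb), while the 5 genes left with no peak in the window had female peaks of 15 to 65 kb (median 20 kb). The other 3 starts without a Setdb1-depleted peak, those of Sycp1, Nanos2 and Mov10l1, kept one elsewhere in the window and had female peaks of 25, 80 and 135 kb (median 80 kb), so a narrow female peak was not common to all 8. By promoter, and with the RefSeq start in place of the GENCODE one, 8 of the 14 germline genes with an E-box had the start under H3K27me3 in the female list, 2 in the Setdb1-depleted list (Ddx4 and Sohlh1) and 6 in the male list. For the 13 without an E-box the counts were 4, 2 and 4. A split by CpG gave much the same fall. Of the 18 germline genes with a ratio of at least 0.6, 10 were covered in the female list (55.6%). In the Setdb1-depleted list 3 were (16.7%), and in the male list 7 (38.9%). Of the 9 with a lower ratio, 2, 1 and 3 were. Among 8020 other genes with a ratio of at least 0.6 the shares were 17.8%, 16.7% and 15.8%. Among 7640 other genes with a lower ratio they were 21.6%, 18.3% and 19.8%. The parts of the motif and of CpG were not told apart. Among 1256 other genes with an E-box the shares were 19.7%, 17.5% and 17.2%, and among 14404 without it 19.7%, 17.4% and 17.8%, so among the other genes the shares were nearly the same with and without the motif.

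**Figure D4:**
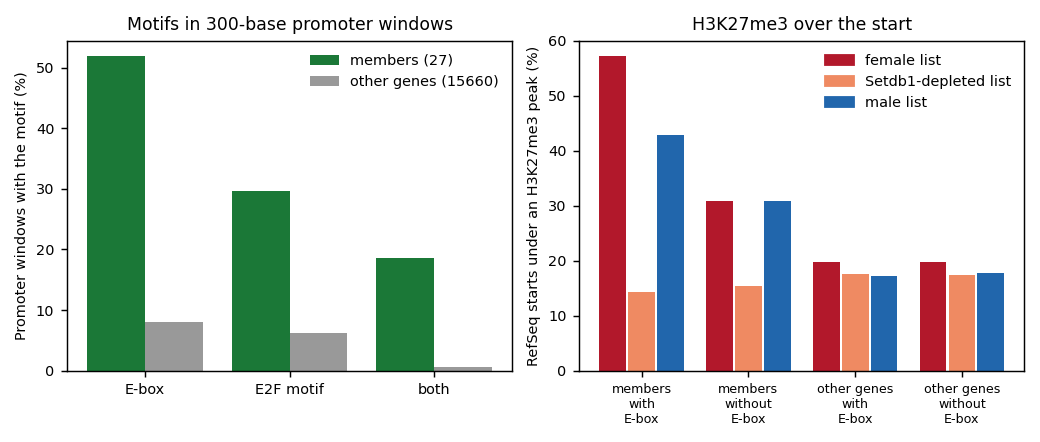
Left, percent of 300-base RefSeq promoter windows with the E-box, the E2F motif or both, in 27 germline genes and 15660 other autosomal genes. Right, percent of RefSeq starts under an H3K27me3 peak in each pooled list, for genes with and without the E-box; the germline genes with it go from 57.1% in the female to 14.3% in the Setdb1-depleted list, while the other genes lie between 17.2% and 19.7% throughout.

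H3K9me3 covered few of the genes and no start. In the female list 5 of 32 had a peak in the window (Sohlh2, Sycp1, Stag3, Asz1 and Mov10l1), or 15.6%, where 8.5% of genes of similar length had one. In the Setdb1-depleted list 1 gene did (Mov10l1, 3.12%), beside 5.69%, and in the male list 4 (Sohlh2, Sycp1, Mov10l1 and Piwil1), or 12.5%, beside 7.97%. Over the start there were 0 germline genes in each list, where the other genes had 2.92%, 2.47% and 2.98%. So 4 of the 5 genes with a female H3K9me3 peak had none in the Setdb1-depleted list, and this was so for 54.9% of the 1555 other genes with a female peak. In the male list 2 of the 5, Stag3 and Asz1, had none, beside 39.7%. H3K9me3 peaks were also fewer over all autosomes in the Setdb1-depleted list (3467 against 5820), and each of these counts rests on 5 genes.

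The H3K9me3 peaks lay far from the GENCODE starts, beginning between 12.5 kb (Piwil1) and 121 kb (Sycp1) past them, and were 10 to 20 kb wide. The RefSeq start of Piwil1 lies 33722 bp further into the gene than the GENCODE one, so its peak ended before the RefSeq start. Sohlh2, a partner of Sohlh1, had a female and a male peak with the same borders (chr3:55195001-55205000). Sycp1 had female and male peaks at 61.1 and 56.1 kb that both ran to 86.1 kb, split in each list into 2 adjoining peaks, and a further male peak just past the end of the gene. Mov10l1 had a peak at the same near border in all 3 lists (chr15:89030001-89050000 in the female list), 20 kb wide in female and male and 15 kb in Setdb1-depleted cells, inside its H3K27me3 domain. The median share of the sequence in lower case, the part that RefSeq masks as repeats, was 69.3% for the female H3K9me3 peaks over germline genes and 65.5% for all female autosomal H3K9me3 peaks, against 37.1% and 29.2% for H3K27me3.

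H3K9me2 was found over 3 genes in the female list (Sycp1, Stk31 and Mov10l1, 9.38%), 4 in the Setdb1-depleted list (the same and Sohlh2, 12.5%) and 3 in the male list (Sycp1, Stk31 and Sohlh2, 9.38%), where the other genes had 2.52%, 1.8% and 2.61%. It lay over no germline start. None of the 3 genes with a female peak lacked one in the Setdb1-depleted list, while 58.1% of the 461 other genes with a female peak did. In the male list 1 of the 3, Mov10l1, had none, beside 40.8%. At Sohlh2 the H3K9me2 peak of the Setdb1-depleted list had the borders of the H3K9me3 peak that the female and male lists had there, and at Stk31 and Mov10l1 the H3K9me2 peaks were narrower in the Setdb1-depleted than in the female list. At Sycp1 the peak was wider, 15 kb against 10 kb in the female list. Stk31 had 41.7%, 11.9% and 29.2% of its window under H3K9me2 without an H3K9me3 peak in any list. In all, 7 of the 32 genes had an H3K9me3 or H3K9me2 peak in some list. Of these 7, 6 also had an H3K27me3 peak in some list, with Piwil1 the exception. Only 5 of the 32 genes had no H3K27me3 peak in any list, so 6 of 7 is near the share over the whole set. The authors report a subtle cross-reactivity of the H3K9me3 antibody with H3K27me3, which they held unlikely to matter. Its part in these counts was not tested.

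**Figure D5:**
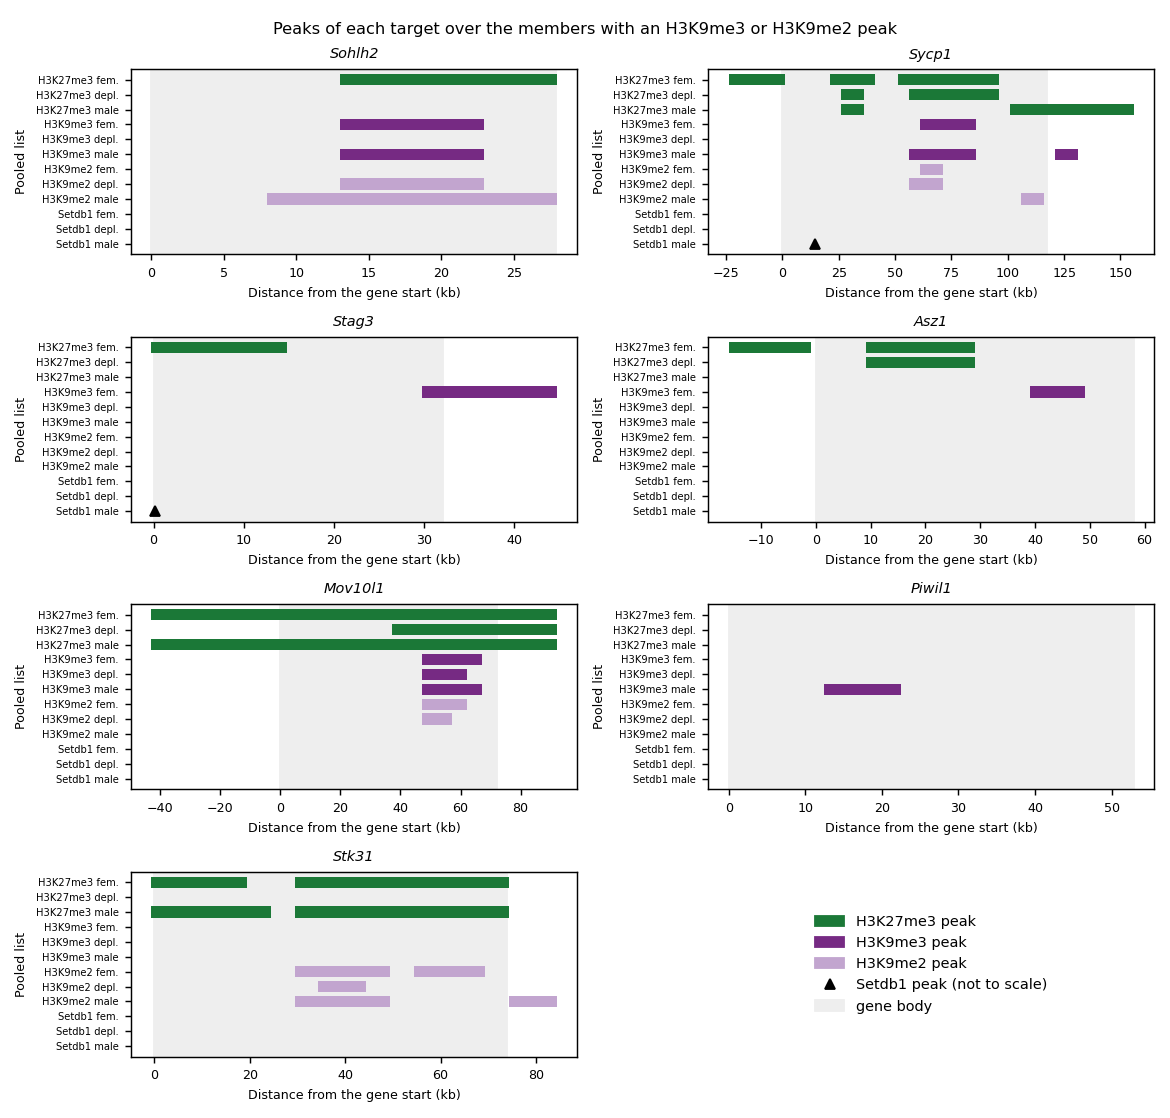
Peaks of each target over the 7 germline genes with an H3K9me3 or H3K9me2 peak, against the distance from the gene start in kb, with 1 row for each pooled list and the gene body shaded; the scale differs between genes. The H3K9 peaks lie within the gene body or past its end and away from the start in every gene, and at Sohlh2, Sycp1, Mov10l1 and Stk31 they share ground with an H3K27me3 peak.

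Setdb1 itself was found over few of the genes. The female and Setdb1-depleted Setdb1 lists had 0 germline genes with a peak in the window, where the other genes had 1.99% and 0.613%. The male list had 4 (12.5%), beside 5.15%. That list is the longest of the 3, although it was called on the fewest reads, 12320583 after down-sampling, against 18134299 in the female and 14405821 in the Setdb1-depleted list. The peaks were weak. That in Stag3 (chr5:138280377-138280477) had a pileup of 7 reads, a 4.48-fold enrichment over local background, a −log10 p of 5.75 and a −log10 q of 1.31. Its summit lay 193 bp past the GENCODE start, in an untranslated exon, and its edge was 33 bp from the E-box shown above. The remaining 3 peaks lay in introns, at 14.3 kb (Sycp1), 75.1 kb (Tex14) and 49.1 kb (Tdrd9) past the start. They had pileups of 6, 5 and 6 reads and 3.50-fold, 3.65-fold and 4.25-fold enrichment. Their −log10 p values were 4.08, 4.24 and 5.28. Their −log10 q values were 0.128, 0.128 and 0.873, so none of these 3 had a q-value under 0.05.

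The sequences under the intronic peaks are given in the direction of the gene, with no motif in capitals, since they differ widely in composition. They are Sycp1 (chr3:102921747-102921844, minus strand), Tex14 (chr11:87480153-87480278, plus strand) and Tdrd9 (chr12:112020616-112020713, plus strand).
Sycp1: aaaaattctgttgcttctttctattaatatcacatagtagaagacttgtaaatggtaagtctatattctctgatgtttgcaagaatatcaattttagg
Tex14: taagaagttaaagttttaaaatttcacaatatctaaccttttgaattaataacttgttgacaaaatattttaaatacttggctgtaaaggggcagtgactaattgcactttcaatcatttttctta
Tdrd9: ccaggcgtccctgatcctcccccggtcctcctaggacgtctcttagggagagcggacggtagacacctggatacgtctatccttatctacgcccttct
The sequences under the Sycp1 and Tex14 peaks had 27.6% and 25.4% GC and no CpG, and that of Tex14 was masked as repeat over its whole length, while those in Tdrd9 and Stag3 had 59.2% and 61.4% GC with 7 and 13 CpG. The Tex14 peak lay inside an H3K27me3 peak of the female and male lists. In Stag3, the male Setdb1 peak stood where the female list had an H3K27me3 peak over the start and the male list had none. No H3K9me3 or H3K9me2 peak of any list overlapped a Setdb1 peak in these 4 genes.

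There were 4 genes with no peak of any target in any list: Piwil4, Sycp3, Rec8 and Dazl. Their nearest H3K27me3 peak was 11.4 kb (Dazl), 62.0 kb (Rec8), 104 kb (Piwil4) and 920 kb (Sycp3) from the start in the female list. The median distance from a germline start to the nearest H3K27me3 peak was 7.11 kb in the female, 28.4 kb in the Setdb1-depleted and 10.2 kb in the male list, beside 49.4, 60.1 and 57.4 kb over the other genes. For H3K9me3 the medians were 286, 799 and 356 kb, beside 248, 574 and 295 kb. So the germline genes lay nearer to H3K27me3 than genes of similar length did, and not nearer to H3K9me3.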

How the data were processed

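ChIP-seq of H3K27me3, H3K9me3, H3K9me2 and Setdb1 was analysed from 12 deposited lists, 1 per target and kind of cell, with H3 or whole cell extract (WCE) as the control. Single-end reads were aligned by the authors with Bowtie2 to mm10 with strain-variable bases masked. For histone marks the authors pooled libraries and called peaks of at least 10 kb in Seqmonk (fragments of 10 kb, p of 1e-05) in steps of 5 kb. These deposited lists carry no score for the mark, only log2 H3 reads of each pool as the authors scaled them. Undoing the scaling gave whole reads for 100% of 43282 values. For Setdb1, per the file headers, MACS2 2.1.0.20140616 was run by the authors against WCE with down-sampling at p of 0.001. For each deposited peak it gave a pileup (a read coverage signal), a fold enrichment (a ratio to local background) and −log10 p-values. The −log10 q-value was a further score that MACS2 gave per deposited peak. Reads kept before down-sampling were 42853662 (female), 18322471 (Setdb1-depleted) and 12320583 (male), and MACS2 estimated fragments of 101, 97 and 98 bp. The lists hold 0 columns of single libraries.

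Genes came from GENCODE M21 and sequence from GRCm38.p6, the assembly of mm10, and positions are 1-based. Overlaps of at least 1 bp were counted with Python 3.11.15, numpy 2.4.6, pandas 2.3.3 and matplotlib 3.10.9, after the overlap code was tested on simulated data. Other genes were autosomal, protein-coding, of a length within the range of the 32, with these left out. All 32 genes were described by role, and neighbours were named where they shared a peak. The genes and lists were chosen with earlier results of these data known. Alternatives were no flank, a flank of 10 kb, the start only, at least 50% of the window, peaks of at least 20 kb, stricter Setdb1 thresholds, equal numbers of peaks, the same female peak, and other backgrounds. No test between kinds of cells was made.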

Additional observations from a re-analysis of the deposited data

How the results depend on the processing

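Counts follow from pooled lists whose length and depth differ, and positions of histone peaks are known to 5 kb. No paired analysis was possible because the libraries of each group were pooled before peaks were called, and for the same reason no library could be left out. No flank or a flank of 10 kb, both other backgrounds and the summit in place of any overlap moved no count or share by over 1.5 times. With the start only, the counts of genes were 0 for H3K9me3, H3K9me2 and Setdb1 in each list, and 7 and 11 for H3K27me3 in the Setdb1-depleted and male lists. Shares of other genes were then 2.92%, 2.47% and 2.98% for H3K9me3 (female, Setdb1-depleted, male), 0.908%, 0.695% and 1.18% for H3K9me2, 19.7%, 17.6% and 17.9% for H3K27me3, and 0%, 0% and 0.0328% for Setdb1. With at least 50% of the window under peaks, counts were 0 for H3K9me3 in each list, 0, 0 and 1 for H3K9me2, and 13, 7 and 12 for H3K27me3. With peaks of at least 20 kb, H3K9me3 gave 1, 0 and 1 (3.12% in the female and male lists, below the 4.02% and 4.04% of other genes), and H3K9me2 gave 1 in the female and 0 in the Setdb1-depleted list. A −log10 p of at least 5 left 2 male Setdb1 genes (Stag3 and Tdrd9), a q-value under 0.05 left 1 (Stag3), and 337 peaks per list left 0. With equal numbers of peaks, H3K9me3 gave 3 female and 2 male genes (9.38% and 6.25%, beside 6.3% and 6.49% of other genes), so the male share was no longer above theirs. H3K9me3 lost 2 of these genes to the Setdb1-depleted list and 1 to the male list with 0 gained, and H3K9me2 gained 2 in the Setdb1-depleted list and kept 1 in the male list. When the same female peak had to be overlapped, 1 H3K9me2 gene was kept and 2 were lost in the male list. The start only, 50% of the window and the same female peak are stricter rules of overlap, and the remaining settings leave fewer peaks. Other causes were not tested. Alternatives chosen after seeing the data (equal numbers of peaks, 5 kb around the start, peaks of at least 20 kb) left 7 or 8 germline starts without a Setdb1-depleted H3K27me3 peak, and 4 or 5 without a male one. With 5 kb around the start, however, 3 starts were gained in the Setdb1-depleted list (in place of 1) and 5 in the male list (in place of 2), giving 15 female, 10 Setdb1-depleted and 15 male starts, and Asz1 took the place of Nanos2 among those absent from the Setdb1-depleted list.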

Other observations

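A second list of 42 germline genes, counted in the same way, had 40 autosomal genes. H3K27me3 lay in the windows of 24 (60%) in the female, 17 (42.5%) in the Setdb1-depleted and 19 (47.5%) in the male list, beside 31.2%, 28.1% and 28.9% of genes of similar length. It lay over the starts of 16 (40%), 12 (30%) and 14 (35%), beside 19.7%, 17.6% and 17.9%. Of the 16 female starts, 4 had no Setdb1-depleted peak (25%), which is near the 25.2% of other genes, so the larger loss over the starts of the 32 genes was not seen in this list. H3K9me3 lay in the windows of 3 genes in the female list (Boll, Terb1 and Mei4), 0 in the Setdb1-depleted and 3 in the male list (Henmt1, Cpeb1 and Mei4), and over no start. These shares of 7.5%, 0% and 7.5% were below the 8.5%, 5.69% and 7.97% of genes of similar length. At Henmt1, which encodes the methyltransferase of piRNAs, the male list had an H3K9me3 and an H3K9me2 peak with the same borders, 15 kb wide. A Setdb1 peak lay in the windows of 3 of these genes (7.5%), Terb1, Mei4 and Syce3, in the male list and of 0 in the other lists. Among genes of similar length the shares were 5.15% in the male, 1.99% in the female and 0.613% in the Setdb1-depleted list.

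Of 23 autosomal genes whose products take part in silencing, 3 (13%) had an H3K27me3 peak in each list, with E2f6 and Pcgf6 in all 3 lists. This was below the 31.2% (female), 28.1% (Setdb1-depleted) and 28.9% (male) of genes of similar length. The Setdb1 gene itself had a female H3K9me3 peak of 10 kb in its window (chr3:95360001-95370000) and none in the other lists.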
